A study of Homo sapiens with 8 samples.

Results

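The expression of 51 genes of mitosis and the kinetochore was followed in M1, M2, M3 and M4 cells. The genes were taken from a fixed list of symbols, all 51 were matched to a row among the 56632 genes of the count table, and all 51 passed the filter on low counts that left 18431 genes for testing. RNA-seq of poly A+ RNA had been carried out on 2 replicates of each of the 4 lines, 8 libraries in all, after 8 days of culture as 3D acini in Matrigel with 2% horse serum. M1 is MCF10A, an immortalized mammary epithelial line that forms no tumors. M2, or MCF10AT1k.cl2, is an MCF10A derivative that carries activated T24-HRAS and was passaged in animals. Tumors grown in animals from M2 cells were the source of both M3 (MCF10Ca1h) and M4 (MCF10CA1a.cl1). The medium of M1 and M2 held EGF at 10 ng/ml, and the medium of M3 and M4 held none, so that line and EGF cannot be told apart where M3 or M4 is set against M1 or M2. Each stage is a single line, and the replicates of a line measure at most the spread between its cultures, not between independent tumors.

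Dividing cells build a kinetochore on each centromere, where a constitutive inner layer around the histone variant CENPA carries an outer layer that binds spindle microtubules. The spindle checkpoint holds back the anaphase-promoting complex (APC/C) until all chromosomes are attached, after which cyclin B and securin are destroyed, sister chromatids part and the cell divides. The mRNAs of most of these proteins are made in late S, G2 and M phase, when FOXM1 and the MYBL2-MuvB complex act at a promoter element called the CHR and NF-Y binds nearby CCAAT boxes.

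The promoters are shown first because these motifs belong to the known control of the genes. RefSeq promoter windows of 300 bases, from 250 before to 50 after the gene start (GRCh38.p14), were found for 43 of the 51 genes. Windows were not used here for CENPH, CENPL, CENPM, TTK, AURKA, BIRC5, TPX2 and UBE2C. For 5 of the 43 genes there were 2 windows, and a gene was counted once if any of its windows held a match. A CHR motif, searched as TTTGAA or TTCGAA on both strands, was found for 31 of 43 genes (72.1%), beside 19.5% of all 27305 genes with a window. A CCAAT motif, searched on both strands (ATTGG on the other strand), was found for 34 of 43 (79.1%), beside 39.7% of all genes. Both were in the same window for 26 of 43 (60.5%), beside 7.85%. Neither was found for 4 of 43 (9.3%), which were CENPE, CENPI, KIF2C and KNSTRN, beside 49.8% of all genes. Matched to GRCh37, the start of the window lay within 100 bases of an annotated transcript start for 42 of the 43 genes. The exception was CENPI, whose window was set 621 bases downstream of the nearest transcript start and 2870 bases downstream of the start of the gene, so that its letters do not describe the CENPI promoter. The E2F letters TTTGGCGC, TTTCCCGC or TTTCGCGC, a search added later, were found for 4 of 43 genes (9.3%), beside 3.3% of all genes. A match is a run of letters and no measurement of binding. MKI67, ECT2 and CENPW had the largest differences between M4 and M1 among genes with both motifs. Motifs are in capitals, and each sequence runs 5′ to 3′ along the strand of its gene.

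MKI67 (chr10:128126374-128126673, minus strand): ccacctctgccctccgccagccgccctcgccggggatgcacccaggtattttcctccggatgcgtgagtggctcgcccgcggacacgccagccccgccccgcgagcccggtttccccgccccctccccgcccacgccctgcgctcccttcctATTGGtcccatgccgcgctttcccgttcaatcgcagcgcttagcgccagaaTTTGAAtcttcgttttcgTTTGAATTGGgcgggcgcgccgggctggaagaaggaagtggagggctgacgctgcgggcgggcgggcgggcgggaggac

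ECT2 (chr3:172750476-172750775, plus strand): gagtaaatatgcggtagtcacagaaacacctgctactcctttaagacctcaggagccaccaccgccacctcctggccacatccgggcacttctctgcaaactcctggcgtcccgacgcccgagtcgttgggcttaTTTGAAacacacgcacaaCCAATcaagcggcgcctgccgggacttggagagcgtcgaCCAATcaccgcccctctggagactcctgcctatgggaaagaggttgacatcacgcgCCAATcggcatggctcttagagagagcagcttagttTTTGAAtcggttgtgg

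CENPW (chr6:126339865-126340164, plus strand): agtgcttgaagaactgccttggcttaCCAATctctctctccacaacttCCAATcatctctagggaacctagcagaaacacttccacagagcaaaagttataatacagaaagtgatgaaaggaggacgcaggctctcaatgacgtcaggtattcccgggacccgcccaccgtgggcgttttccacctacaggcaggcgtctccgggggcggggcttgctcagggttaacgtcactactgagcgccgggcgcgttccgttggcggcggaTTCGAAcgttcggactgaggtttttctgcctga

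Counted in bases from the gene start, negative before it and with its first base as 1, the MKI67 window held TTTGAA from -47 and from -29, and the second of these shared a base with an ATTGG from -24. ECT2 held TTTGAA from -115 and from 35, with CCAAT from -97, -58 and -2. CENPW held TTCGAA from 18, downstream of its gene start. Over the 31 genes with a CHR match the median distance of a match's midpoint from the gene start was -20, beside -122 over all genes with one, and 53.3% of the matches lay between -25 and 25, beside 14.6%. For CCAAT the median was -76, beside -94, and 59.3% of matches lay between -100 and -25, beside 38.2%. These distances count matches in each window, so a site shared by overlapping windows of a gene was counted in each of them. The median log2 fold changes against M1 were 1.46 (M2), 1.69 (M3) and 1.50 (M4) over the 26 genes with both motifs and 1.57, 1.83 and 1.60 over the 12 genes with no CHR match. Over the 4 genes with neither motif, of which CENPI is one, they were 1.94, 2.21 and 2.06. The differences between these medians were not tested.

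**Figure D1:**
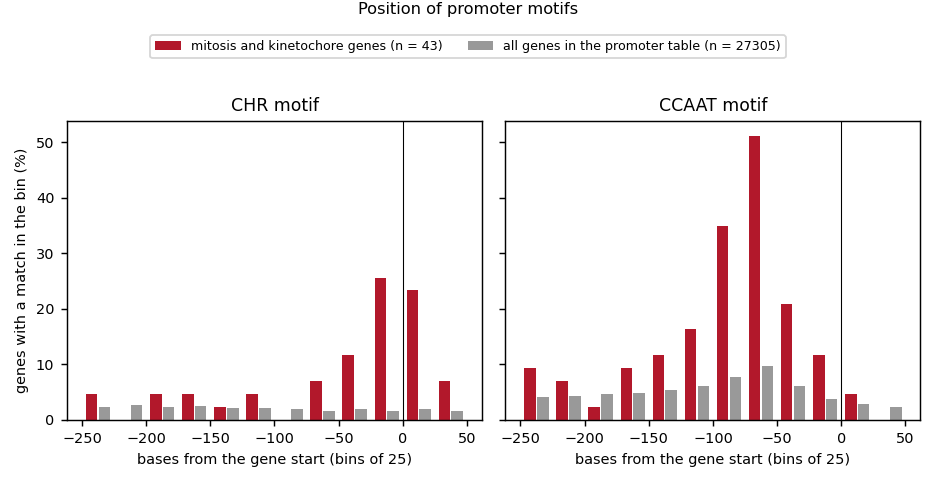
Share of genes (%, vertical axis) with a CHR motif (left) or a CCAAT motif (right) in each bin of 25 bases of a promoter window. The horizontal axis is the distance from the gene start in bases. Red bars are the 43 mitosis and kinetochore genes with a window, and grey bars are all 27305 genes in the promoter table. The red CHR bars reach 25.6% and 23.3% in the bins on either side of the gene start, and the red CCAAT bars reach 51.2% in the bin from -75 to -50.

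Library totals ran from 69669970 to 107350344 counts, and every one of the 51 genes had at least 198 counts in each library. The libraries of M2 lay closest together, with a biological coefficient of variation over all genes of 0.0582, beside 0.374 in M1, 0.306 in M3 and 0.269 in M4. The counts of the M2 pair still differed by more than sampling noise, so they were kept as separate libraries. Their mean chi-square per gene was 6.95 (median 1.95), where noise alone gives a mean near 1. The means were 283.1 in M1, 360.7 in M3 and 135.7 in M4. An excess over sampling noise cannot tell separate cultures from separate preparations of the same RNA, so the M2 spread may not be between cultures. The assignment of a pair of libraries is uncertain. The study's own expression table names M1 replicate 2 as a library of M2 and M2 replicate 1 as a library of M1. Across 13495 genes the libraries as labelled were more alike (Spearman's rho 0.971 in M1 and 0.998 in M2) than after the exchange (0.960 and 0.962). HRAS, the oncogene added to make M2, was at 154.1 and 138.7 CPM in M1, then 159.8 and 153.5 (M2), 269.3 and 327.1 (M3) and 335.2 and 352.4 (M4), which does not separate M1 from M2. The labels were used here, and values under the other assignment are given below and in the closing section. Markers of basal mammary epithelium were present in all libraries, with summed levels of 9766 to 11002 CPM (counts scaled to the size of the library) in M1, 15451 to 15562 in M2, 16952 to 17830 in M3 and 10226 to 11905 in M4. General epithelial markers summed to 2362 to 3045, 2715 to 2778, 3975 to 4873 and 5952 to 9095 CPM in the same order. The basal sums hide genes that moved in opposite directions. By the calling rule given below, 2 of the 8 basal markers were higher and 3 lower in M4 against M1, with log2 fold changes from -2.37 to 3.19. Of 11 matched markers of fibroblasts, endothelium and immune cells, COL1A2 and CD3E were at 0 in every library and PTPRC was at 0 or 0.0366 CPM. The list summed to 27 to 94.6 CPM in M1, 82.8 to 85.1 in M2, 24.3 to 40.7 in M3 and 46.6 to 61.3 in M4. DCN gave 34.1 and 1.62 CPM of this in M1 and 60.2 and 58.6 in M2. Other members of the list were expressed and differed between lines. By the same rule CD14 and VWF were called lower in M3 against M1. In M4 against M1, CD14, CD68 and DCN were called, 1 of them higher and 2 lower, and VWF was called higher in M4 against M3. The mitochondrially encoded genes took 5.11% and 6.85% of counts in M1 and 2.63% to 4.69% elsewhere. The part of these in the results below was not tested.

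M1 stood below the other lines for every gene. The summed level of the 51 genes, on library sizes scaled by TMM, was 1814 and 1409 CPM in M1, then 4688 and 4600 (M2), 5810 and 4804 (M3) and 3923 and 4848 (M4). The M1 libraries did not overlap with the rest. Both M3 sums were above both M2 sums, and the M4 sums lay on either side of the M2 pair and overlapped with those of M3. The mean was 2.88-fold that of M1 for M2, 3.29-fold for M3 and 2.72-fold for M4. Both M1 libraries were below all 6 others in 51 of 51 genes, beside 13.8% of all genes tested. M1 replicate 2 was below replicate 1 in 49 genes, all but CENPW and PTTG1. These are bulk libraries, in which fewer dividing cells and less mRNA per dividing cell cannot be told apart. If M1 replicate 2 and M2 replicate 1 are exchanged, M1 holds the sums 1814 and 4688 and M2 the sums 4600 and 1409. In that setting edgeR called none of the 51 genes in any comparison. Over all 18431 genes, 0 were then called higher in M2 against M1, 146 in M3 and 739 in M4. The absence of calls in M2 is thus that of all genes and is not particular to the 51.

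**Figure D2:**
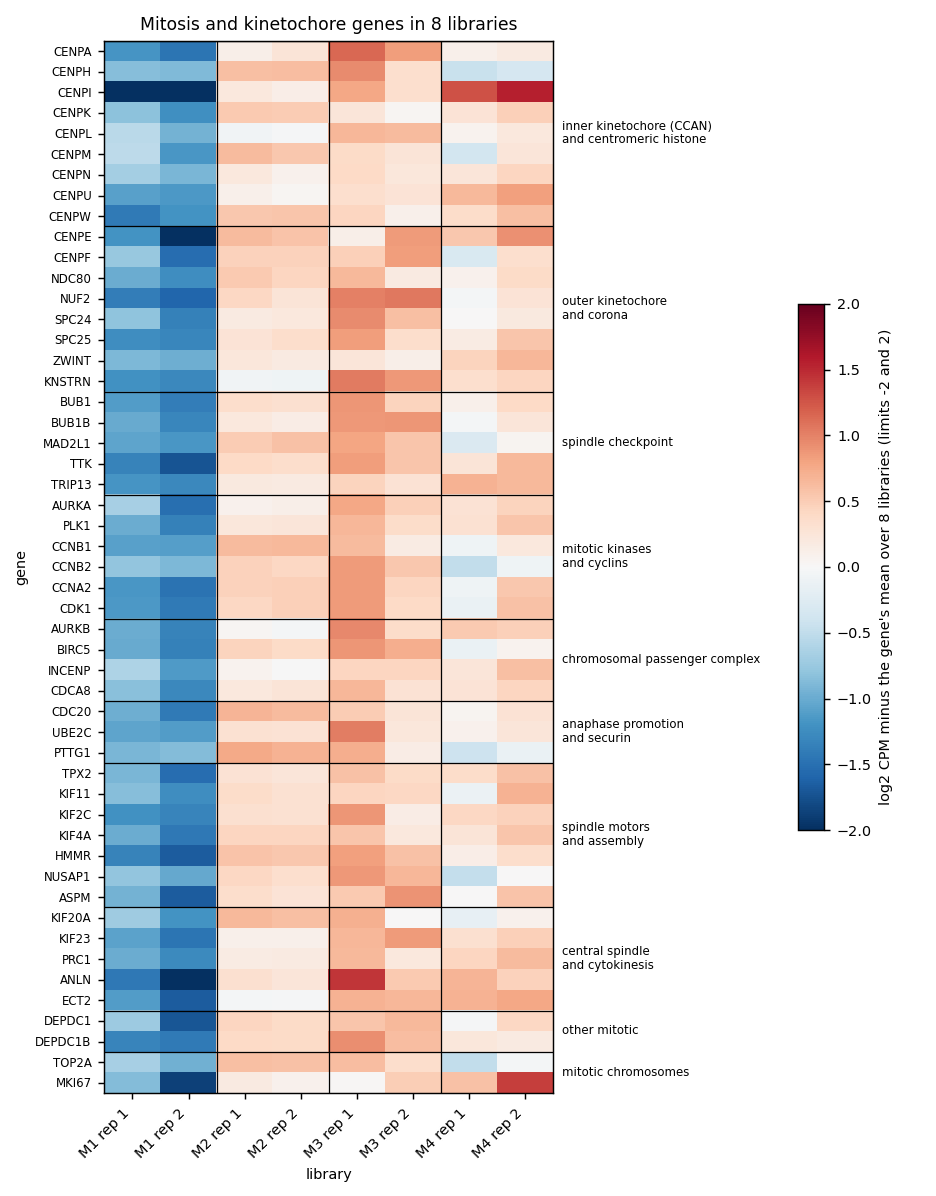
Level of each of the 51 genes (rows, grouped by role) in the 8 libraries (columns), as log2 CPM minus the mean of the gene over the 8 libraries, with colours limited at -2 and 2. Both M1 columns are blue in all rows; CENPI has its highest values in M4, and ANLN has its highest value in M3 replicate 1.

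Called genes are those with an adjusted p under 0.05 and a change of over 2-fold (edgeR quasi-likelihood F test, Benjamini-Hochberg over all genes tested). Against M1, 46 of 51 genes were higher in M2, 51 in M3 and 43 in M4, and none was lower. The background of higher calls over all genes tested was 2.26% for M2, 8.02% for M3 and 9.48% for M4. The 51 genes had median log2 fold changes of 1.50 (M2), 1.69 (M3) and 1.49 (M4), where the median of all genes was -0.04, -0.02 and -0.02. The test of any difference between the other lines and M1 passed for 51 of 51 genes, beside 36.4% of all genes. The 46 calls in M2 rest on its pair of libraries. Without M2 replicate 1 or without M2 replicate 2 no gene was called in M2 by edgeR, at medians of 1.52 and 1.48, and 51 and 50 genes kept an unadjusted p under 0.05. Over all genes, 1 of 19688 was then called higher without M2 replicate 1 and 0 of 19760 without M2 replicate 2. Leaving out both M1 replicate 2 and M2 replicate 1, a setting chosen after seeing the data, gave medians of 1.32 in M2, 1.56 in M3 and 1.32 in M4. This setting left 1 library in M1 and 1 in M2, so no count of calls was read from it. The 3 comparisons share the M1 libraries.

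**Figure D3:**
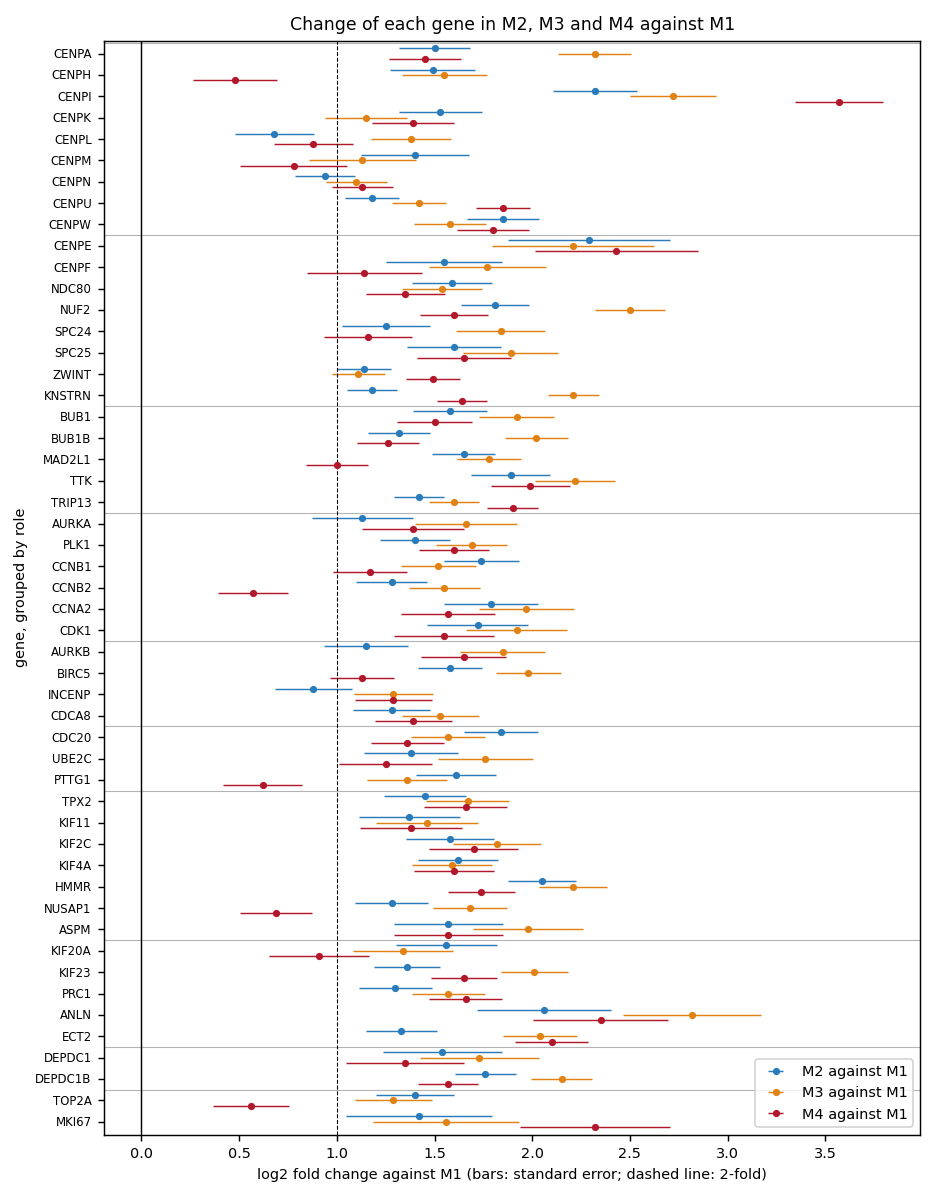
Log2 fold change of each of the 51 genes (vertical axis, grouped by role) in M2 (blue), M3 (orange) and M4 (red) against M1, with bars for the standard error and a dashed line at 2-fold. All points lie to the right of 0, from 0.48 for CENPH in M4 to 3.57 for CENPI in M4.

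At the inner kinetochore, the histone variant CENPA and 8 subunits of the constitutive network that recognizes it were measured. In M2, 7 of these 9 genes were called higher, in M3 all 9, and in M4 6 of 9. CENPI (chromosome X, 100353177 to 100421115, GRCh37), a subunit needed to load new CENPA, was at 2.74 and 2.42 CPM in M1, then 13.2 and 12.5 (M2), 19.6 and 14.4 (M3) and 27.7 and 33.7 (M4). No libraries of neighbouring lines overlapped. Against M1 its log2 fold changes were 2.32 ± 0.216 (SE) for M2, 2.72 ± 0.219 for M3 and 3.57 ± 0.227 for M4, the last being 11.9-fold (edgeR adjusted p = 0.00605, 0.000547 and 0.000148). CENPA (chromosome 2, 26987157 to 27023935) had another order, with 7.2 and 5.88 CPM in M1, then 17.6 and 19.5 (M2), 36 and 29.2 (M3) and 17.4 and 18.5 (M4). Its level in M3 was above every other library, and M2 and M4 overlapped. CENPH (chromosome 5, 68485401 to 68506184) was at 8.3 and 8.09 CPM in M1, then 22.8 and 23.1 (M2), 29 and 19 (M3) and 11 and 11.9 (M4). It was higher in M2 and M3 and was not called in M4, where its log2 fold change was 0.48 (adjusted p = 0.124). CENPU rose 2.27-fold in M2, 2.68-fold in M3 and 3.6-fold in M4, from 12 and 11.5 CPM in M1 to 39.7 and 44.8 in M4. CENPW, a histone-fold subunit, rose 3.6-fold, 2.99-fold and 3.47-fold, and CENPK rose 2.9-fold, 2.22-fold and 2.63-fold in the same order. CENPN, which reads CENPA nucleosomes, had log2 fold changes of 0.94 in M2, where it passed on p (adjusted p = 0.0176) and not on fold, and 1.10 in M3 and 1.13 in M4. CENPL, the partner of CENPN, was called in M3 alone, with values of 0.68 in M2 (adjusted p = 0.0993), 1.38 in M3 and 0.88 in M4. CENPM was called in M2 and M3 and had a value of 0.78 in M4 (adjusted p = 0.0633). The partners CENPL and CENPN, and the partners CENPH and CENPK, therefore differed in which lines passed, and the differences between partners were not tested.

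All 8 genes of the outer kinetochore and corona were called higher in each of M2, M3 and M4. NDC80, NUF2, SPC24 and SPC25 encode the Ndc80 complex, the main microtubule receptor. Levels between genes were compared as CPM per kilobase of exon. NDC80 went from 3.22 in M1 to 9.66, 9.33 and 8.21 CPM per kilobase in M2, M3 and M4. On that scale NUF2 went from 1.78 to 6.25, 10.1 and 5.41, SPC24 from 2.69 to 6.4, 9.64 and 6.02, and SPC25 from 2.03 to 6.14, 7.52 and 6.37. The levels of the 4 mRNAs spanned less than 2-fold in each line. NUF2 (chromosome 1, 163236366 to 163325554) was at 6.41 and 5.57 CPM in M1, then 22.1 and 19.9 (M2), 33.5 and 34.5 (M3) and 16.3 and 20.1 (M4), with M3 above all other libraries. CENPE, a kinesin that carries chromosomes to the spindle equator, was at 15.9 and 6.65 CPM in M1, then 56.4 and 53.8 (M2), 39.4 and 65.2 (M3) and 52.9 and 68.5 (M4). Its log2 fold changes of 2.29 ± 0.415, 2.21 ± 0.414 and 2.43 ± 0.417 had the largest standard errors of the 51 genes in each comparison (edgeR adjusted p = 0.0259, 0.0104 and 0.00493), and its M1 libraries lay apart. KNSTRN, a partner of the spindle protein astrin at kinetochores (chromosome 15, 40674922 to 40686489), was at 23.6 and 22.4 CPM in M1, then 52.4 and 51.7 (M2), 112.3 and 100.5 (M3) and 69.4 and 73.7 (M4). No libraries of different lines overlapped for KNSTRN, and its folds against M1 were 2.26, 4.63 and 3.11. ZWINT, which recruits checkpoint proteins, rose from 30.7 and 29 CPM in M1 to 77.5 and 90.8 in M4. CENPF, a large corona protein, rose 2.94-fold, 3.4-fold and 2.21-fold, and its M4 call was lost without M1 replicate 2 (log2 0.81, adjusted p = 0.0924) or without M4 replicate 2 (0.81, adjusted p = 0.136).

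All 5 spindle checkpoint genes were called higher in the 3 lines. TTK, the kinase that starts the checkpoint signal, was at 14.5 and 11.1 CPM in M1, then 48.5 and 46.7 (M2), 65.5 and 54.1 (M3) and 44.1 and 57.7 (M4). Its folds of 3.71, 4.67 and 3.97 were the largest of the checkpoint genes in each line. BUB1B, an APC/C inhibitor, was at 33 and 26.7 CPM in M1, then 76.1 and 72.8 (M2), 121 and 121.3 (M3) and 64.5 and 78.1 (M4), so that M3 was apart from both M2 and M4. BUB1, the kinase that docks checkpoint proteins, rose 2.98-fold, 3.78-fold and 2.82-fold. MAD2L1, which inhibits CDC20, was at 28.1 and 26.1 CPM in M1 and 47.9 and 60.6 in M4, a log2 fold change of 1.00 ± 0.16 (edgeR adjusted p = 0.00347) that lay at the 2-fold limit. Its M4 call was lost without M1 replicate 2 (0.95) and without M4 replicate 2 (0.84). TRIP13, the ATPase that turns MAD2 over, ran the other way, with 19.1 and 17.8 CPM in M1, then 49.5 and 49.3 (M2), 59.1 and 53.1 (M3) and 70 and 68 (M4), and no libraries of different lines overlapped.

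Of the 6 genes for mitotic kinases and cyclins, 5 were called higher in M2, 6 in M3 and 5 in M4. CCNB1, the main mitotic cyclin, was at 97.4 and 96.4 CPM in M1, then 322.2 and 324.3 (M2), 323.1 and 232 (M3) and 195.7 and 239.4 (M4). CCNB2, the second B-type cyclin, was at 45.1 and 41.5 CPM in M1, then 107.3 and 103.5 (M2), 140.9 and 112.6 (M3) and 55.1 and 73.5 (M4). In M4 it passed on p (adjusted p = 0.0445) and not on fold, at 1.48-fold. CDK1, the kinase that these cyclins activate, was at 43.6 and 36.4 CPM in M1 and 128.8 and 134.8 in M2, and rose 3.3-fold, 3.78-fold and 2.92-fold. CCNA2 followed with 3.45-fold, 3.92-fold and 2.98-fold, and PLK1, which drives mitotic entry and centrosome maturation, with 2.64-fold, 3.22-fold and 3.02-fold. AURKA, the centrosome kinase, was at 45.1 and 25.1 CPM in M1 and 76.2 and 77.1 in M2, and its log2 fold change of 1.13 in M2 missed the threshold (adjusted p = 0.0511). DESeq2 called it (adjusted p = 0.00172), and edgeR called it in M3 and M4 at 3.15-fold and 2.62-fold.

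The 4 genes of the chromosomal passenger complex, which corrects faulty attachments and later moves to the central spindle, were all called higher in M3 and M4. In M2 the exception was INCENP, the scaffold, which passed on p (adjusted p = 0.0479) at 1.85-fold. AURKB, its kinase, was at 15.4 and 12.1 CPM in M1, then 31.3 and 29.7 (M2), 59.3 and 39.5 (M3) and 43.8 and 42.3 (M4). BIRC5, known as survivin, was at 42.3 and 33.2 CPM in M1, then 114.9 and 110.1 (M2), 157.1 and 139.7 (M3) and 77.1 and 88.7 (M4), with M3 above M2 and M2 above M4 in all libraries. CDCA8, known as borealin, rose 2.43-fold, 2.9-fold and 2.62-fold. The BIRC5 call in M4 (2.2-fold) was lost without M1 replicate 2, where its log2 value was 0.97.

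Anaphase genes were among those with the highest levels per length. In M1, PTTG1, the securin that guards separase, was at 46.8 CPM per kilobase and CDC20, the activator of the APC/C, at 40.7, and CCNB1 was next at 39.8. CENPI was lowest at 0.369. CDC20 rose from 94 and 69.7 CPM in M1 to 296.5 and 287.5 (M2), 265.3 and 221.3 (M3) and 192.8 and 226.3 (M4), called in all 3 lines. PTTG1 was at 90.6 and 94.3 CPM in M1, then 287.9 and 276.9 (M2), 284 and 189.6 (M3) and 128.9 and 155.9 (M4), and was called in M2 (3.05-fold) and M3 (2.56-fold). In M4 its value of 1.54-fold had an adjusted p = 0.0501. UBE2C, which hands ubiquitin to the APC/C, rose 2.61-fold, 3.38-fold and 2.37-fold, and its M2 call was lost without either M1 replicate (adjusted p = 0.0647 and 0.0617).

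All 7 genes for spindle motors and assembly were called higher in M2 and M3, and 6 in M4. HMMR, a spindle assembly protein also known as a hyaluronan receptor, had the largest folds of the group, from 18.5 and 14.7 CPM in M1 to 69.1 and 68.3 (M2), 82.9 and 70.2 (M3) and 51.4 and 59.8 (M4). TPX2, which activates AURKA on the spindle, was at 68.1 and 44.5 CPM in M1, then 156.8 and 151.3 (M2), 191.8 and 167.7 (M3) and 165 and 192 (M4). The kinesins KIF11, KIF2C and KIF4A, which push poles apart, take microtubules down and shape chromosome arms, rose 2.6-fold, 3.25-fold and 3.04-fold in M4. The KIF11 call in M2 was lost without either M1 replicate, and that in M4 without M4 replicate 2 (log2 0.94). ASPM, a spindle pole protein, rose 2.97-fold in M2, 3.95-fold in M3 and 2.97-fold in M4. NUSAP1, which bundles spindle microtubules, was at 42.6 and 36.4 CPM in M1, then 98.1 and 93.4 (M2), 135.4 and 117.7 (M3) and 53.3 and 74.3 (M4). In M4 it passed on p (adjusted p = 0.0255) at 1.62-fold.

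All 5 genes of the central spindle and cytokinesis were called higher in M2 and M3, and 4 in M4. ANLN, an actin-binding protein of the contractile ring, was at 70.4 and 40.8 CPM in M1, then 238.3 and 225.9 (M2), 511.7 and 273.7 (M3) and 305.4 and 262.9 (M4). Its log2 fold change of 2.82 ± 0.353 in M3 (edgeR adjusted p = 0.00235) was the largest of the 51 genes there, and its M3 libraries differed by more than those of any other line. ECT2, the exchange factor that turns on RhoA at the equator, was at 37.2 and 25.4 CPM in M1, then 78.4 and 79.1 (M2), 129.9 and 126.8 (M3) and 130.3 and 137.5 (M4). Here M4 was above M3 and M3 above M2 in all libraries, but neither step passed the test. The log2 fold changes were 0.06 for M4 against M3 (edgeR adjusted p = 0.842) and 0.70 for M3 against M2 (0.0659). KIF23, a motor of the centralspindlin complex, rose 2.57-fold, 4.02-fold and 3.14-fold, and PRC1, which crosslinks the central spindle, rose 2.46-fold, 2.97-fold and 3.16-fold. KIF20A, which carries the passenger complex to the midzone, was called in M2 and M3, and in M4 it passed on p (adjusted p = 0.0302) at 1.87-fold.

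The chromosome proteins TOP2A and MKI67, both used as proliferation markers, differed in whether they were called in M4. The difference between these genes was not tested. TOP2A, which untangles sister DNA, was at 149 and 121.8 CPM in M1, then 358.5 and 355.4 (M2), 364 and 300.3 (M3) and 168.1 and 230.3 (M4). It was called in M2 (2.64-fold) and M3 (2.45-fold), and its value of 1.47-fold in M4 missed the threshold (adjusted p = 0.0644). MKI67, which coats mitotic chromosomes, was at 114 and 57.1 CPM in M1, then 236.5 and 221.2 (M2), 211.5 and 292.2 (M3) and 311.2 and 540.9 (M4). It was called in M3 (2.94-fold) and M4 (4.98-fold), and its value of 2.67-fold in M2 missed the threshold (adjusted p = 0.0743), where DESeq2 called it (adjusted p = 0.00197). The M3 call of MKI67 was lost without M1 replicate 2 (adjusted p = 0.0758) or without M3 replicate 2 (adjusted p = 0.113). DEPDC1 and DEPDC1B, a pair of related genes expressed in dividing cells, were called in all 3 lines. DEPDC1B rose 3.39-fold, 4.43-fold and 2.97-fold, and DEPDC1 rose 2.91-fold, 3.33-fold and 2.55-fold.

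**Figure D4:**
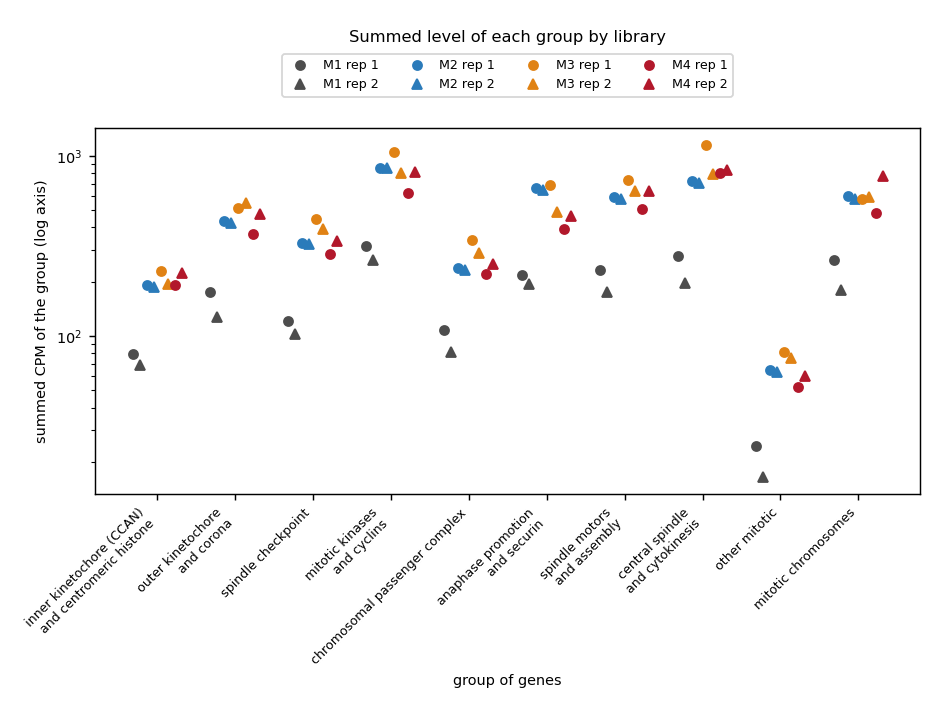
Summed CPM of each group of genes (log axis) in each library, with circles for replicate 1 and triangles for replicate 2. The M1 points lie below all others in each group, and the M2 points of a group nearly coincide; for mitotic kinases and cyclins the sums are 314.1 and 265.2 in M1, then 853.3 and 860.5 (M2), 1052 and 800.3 (M3) and 619.9 and 808.7 (M4).

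Few genes passed the test between M3 and M2. The summed level in M3 was 1.14-fold that in M2, and the median log2 fold change was 0.24, beside -0.00 for all genes. One gene, KNSTRN, was called higher, beside 2.95% of all genes, with a log2 fold change of 1.03 ± 0.127 (edgeR adjusted p = 0.00577). Its call was lost without M2 replicate 1 (adjusted p = 0.102), without M2 replicate 2 (adjusted p = 0.108), and without M3 replicate 1, where the value was 0.95. With M1 replicate 2 and M2 replicate 1 exchanged, the median was 0.86 and KNSTRN was not called (1.52, adjusted p = 0.163). Dropping the fold minimum gave 3 genes, KNSTRN, CENPA (0.81, adjusted p = 0.0431) and BUB1B (0.70, adjusted p = 0.0433), beside 3.98% of all genes, a share near this background. M3 replicate 1 was above replicate 2 in 43 of 51 genes. The median was 0.12 without M3 replicate 1 and 0.41 without M3 replicate 2.

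Between M4 and M3, which are compared because both came from M2 xenografts, most genes that passed the test were lower in M4. M3 and M4 share the medium without EGF. The summed level in M4 was 0.826-fold that in M3, with overlapping libraries, and the median log2 fold change was -0.35, beside -0.02 for all genes. CENPH alone was called lower, at -1.07 ± 0.215 (edgeR adjusted p = 0.0167), beside 6.3% of all genes. Its call was lost without M4 replicate 1 (adjusted p = 0.103), without M4 replicate 2 (adjusted p = 0.069), without M3 replicate 1 (-0.74), and under the exchange of M1 replicate 2 and M2 replicate 1 (adjusted p = 0.316). The exchange moved no M3 or M4 library and left the CENPH value at -1.07. It acted here, and on the counts below, through the spread that is estimated from all libraries together. Without the fold minimum 12 genes were lower, beside 9.72% of all genes. They were CENPH, CENPA (-0.86), NUF2 (-0.90), KNSTRN (-0.57), BUB1B (-0.77), MAD2L1 (-0.78), CCNB2 (-0.98), BIRC5 (-0.84), PTTG1 (-0.73), NUSAP1 (-0.99), DEPDC1B (-0.58) and TOP2A (-0.74). Every role group had at least 1 of them apart from central spindle and cytokinesis. CENPI alone was higher, at 0.86 ± 0.204 (edgeR adjusted p = 0.0289), beside 7.05% of all genes. The 13 genes that passed without the fold minimum became 0 without M4 replicate 1, 5 without M4 replicate 2, 4 without M3 replicate 1 and 13 without M3 replicate 2. They became 0 under the exchange and 7 with M1 replicate 2 and M2 replicate 1 left out, so nothing was read from these shares. M4 replicate 2 was above replicate 1 in 47 of 51 genes, and the number called past 2-fold ran from 0 without M4 replicate 1 to 4 without M3 replicate 2.

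**Figure D5:**
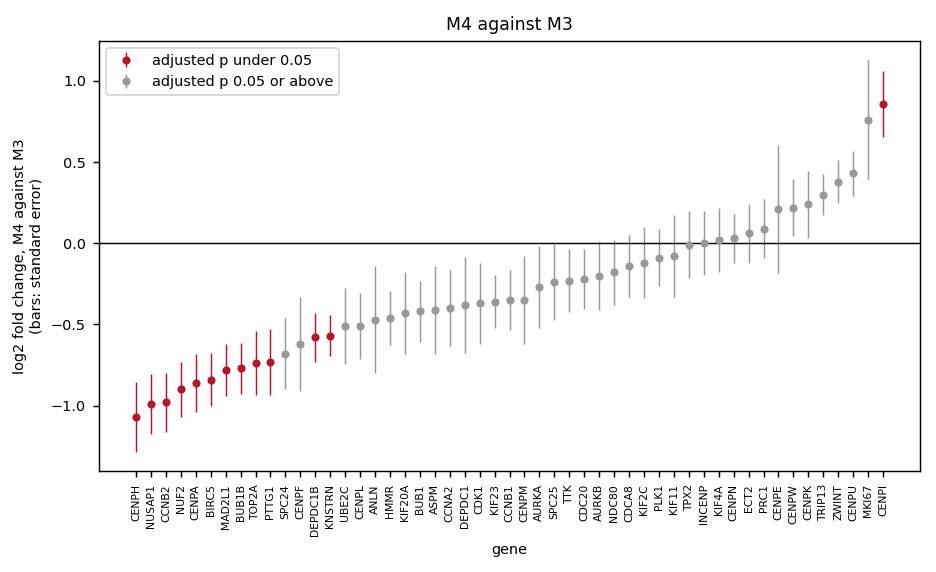
Log2 fold change of M4 against M3 for the 51 genes, in order of size, with bars for the standard error and red points for an adjusted p under 0.05. The red points run from -1.07 for CENPH to -0.57 for KNSTRN on the lower side, and CENPI at 0.86 is the red point on the higher side.

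The genes were also ranked by their means over the 2 libraries of each line, with no test of the order. The highest mean was in M3 for 32 genes, in M2 for 10 and in M4 for 9. M3 replicate 1 alone held the highest value of the 8 libraries in 28 of 51 genes. These ranks were not counted over all genes. Those highest in M4 were CENPE, CENPI, CENPN, CENPU, ZWINT, PRC1, TRIP13, MKI67 and ECT2. Of these, CENPI alone passed the test of M4 against M3. Those highest in M2 were CENPK, CENPM, CENPW, NDC80, CDC20, CCNB1, KIF20A, KIF4A, PTTG1 and TOP2A, and none of them passed the test of M3 against M2.

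Genes that control or accompany the program were read from lists written from general knowledge. Of 14 regulators of mitotic transcription, 4 were called higher in M2, 4 in M3 and 3 in M4, with none lower and medians of 0.21, 0.32 and 0.29. The share called higher over all genes tested was 2.26%, 8.02% and 9.48%. Without the fold minimum, 5 of the 14 were higher in M4 and 3 lower, beside 2875 and 2904 of all 18431 genes. The lower ones were RBBP4 (-0.92, edgeR adjusted p = 0.0048), NFYB (-0.84, 0.0353) and RBL2 (-0.58, 0.0171). LIN37 (0.31) and LIN52 (0.36) did not pass in M4. RBL1 was called higher in all 3 lines. FOXM1, the forkhead factor of late cell cycle genes, was at 42 and 26.4 CPM in M1, then 102.3 and 93.7 (M2), 98.2 and 108.9 (M3) and 100.2 and 119.7 (M4). MYBL2, the Myb protein that joins MuvB, was at 34.7 and 27.9 CPM in M1, then 101.8 and 94.9 (M2), 92.2 and 105.6 (M3) and 79.1 and 125.3 (M4). Both were called in all 3 lines, with log2 fold changes in M4 of 1.69 ± 0.225 for FOXM1 (edgeR adjusted p = 0.00173) and 1.71 ± 0.231 for MYBL2 (edgeR adjusted p = 0.00184). LIN9, a core subunit of MuvB, was called in M2 (1.11) and M3 (1.55) and passed on p in M4 (0.82, adjusted p = 0.0216). Under the exchange of M1 replicate 2 and M2 replicate 1 none of the calls of FOXM1, MYBL2 and LIN9 held. The log2 values were then 0.52 in M3 (adjusted p = 0.687) and 0.61 in M4 (0.55) for FOXM1, 0.54 (0.702) and 0.58 (0.601) for MYBL2, and 0.94 in M3 (0.342) for LIN9.

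Of 24 other kinetochore and centromere genes, 10 were called higher in M2, 13 in M3 and 10 in M4, and SKA1, of the outer complex that tracks microtubule ends, led in M4 at 2.51. Of 22 other spindle, centrosome and cytokinesis genes the counts were 16, 17 and 16, led in M4 by CEP55, an abscission factor, at 2.69. Condensin, cohesin and cohesion genes gave 10, 11 and 11 of 21, led by the condensin subunit NCAPG at 2.24. Other entry and exit genes gave 5, 8 and 9 of 16, led by PKMYT1, a kinase that inhibits CDK1, at 2.28. Other checkpoint and APC/C genes, mostly core subunits of the ligase, gave 1, 2 and 0 of 19, with medians of 0.22, 0.32 and 0.28. All these counts stand beside 2.26%, 8.02% and 9.48% of all genes called higher in M2, M3 and M4. Those of the checkpoint and APC/C list were near these shares, and nothing was read from them. None of these lists had a gene called lower against M1. For comparison with S phase, 18, 14 and 16 of 30 DNA replication genes were called higher, with medians of 1.11, 0.96 and 1.04 beside 1.50, 1.69 and 1.49 for the 51 mitotic genes. The replication genes summed to 1325 and 1373 CPM in M1, then 2732 and 2686 (M2), 2392 and 2496 (M3) and 2287 and 2600 (M4), led by the loading factor CDC6 at 1.98 in M4. The difference between the lists was not tested. Under the same exchange the leading genes were not called in M4, with values of 1.31 for SKA1 (adjusted p = 0.248), 1.14 for CEP55 (0.416), 0.98 for NCAPG (0.404), 1.39 for PKMYT1 (0.157) and 1.24 for CDC6 (0.127).

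Near-identical copies took few reads. KIF4B (chromosome 5), 95.6% identical to KIF4A over the aligned transcript, had at most 0.154 CPM in a library where KIF4A had 63.2. PTTG2, 94.2% identical to PTTG1, had no count. CDC20P1 had at most 0.364 CPM in a library where CDC20 had 287.5. PTTG3P had at most 7 counts, and UBE2CP1 and UBE2CP2 at most 3 and 15 counts, in a library. Reads that a copy and its gene share could still have been divided between them.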

How the data were processed

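Poly A+ RNA from 2 replicates of each of 4 lines had been sequenced as paired-end reads. Trimmomatic, STAR (genome hg19) and RSEM with GENCODE v19 annotation took the authors from reads to estimated counts per gene. The deposited values are expected counts, not normalized. Tool versions and the strand setting are not given in the sources used here, so reads of overlapping antisense genes may be included. The expected counts were rounded (12.8% were not whole). Groups came from the sample labels. Symbols, coordinates and exon lengths came from GENCODE release 44 on GRCh37.

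Lines were compared by the robust quasi-likelihood F test of edgeR 4.0.16 (R 4.3.3) in a fit of all 8 libraries with a term for each line, after filterByExpr and TMM scaling, and p-values were adjusted over 18431 genes by Benjamini-Hochberg. A call needed both an adjusted p below 0.05 and a log2 change of more than 1 in size. Values after ± are standard errors derived from the F statistic, with 2 libraries a line. The 2-fold rule used CPM with 0.001 added. The members, gene lists and roles were chosen with earlier results of these data known. All 51 genes are named, and of each other list the called gene with the largest change in M4 in each direction (none was called lower), with FOXM1, MYBL2 and LIN9. The other regulators of mitotic transcription named in the text were added later. The printed promoters are the first 3 by size of change in M4 with both motifs. The alternatives were DESeq2 1.42.0 and its size factors, total counts, no filter or at least 50 counts in 2 libraries, a replicate block, only the lines compared, exchanging or leaving out the libraries of uncertain assignment, other thresholds, and leaving out each library. The edgeR fit was also run on simulated counts that had the same spread in every line. That run does not cover lines of unequal spread, as these are, and nothing was read from it.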

Additional observations from a re-analysis of the deposited data

How the results depend on the processing

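The counts called against M1 and the medians stayed within 1.5 times, or within the spread between replicates, under DESeq2 and its size factors, total counts, other filters on low counts, a fit of only the lines compared, and the replicate block, under which 46, 51, 42, 1 and 1 genes were called. The replicate differences of the lines correlated by -0.0244 to 0.122, so the replicate numbers were not taken to pair the samples. With M1 replicate 2 and M2 replicate 1 exchanged, 0 of the 51 genes were called by edgeR in every comparison and in the test of any line. Over all 18431 genes, 0 were then called higher in M2 against M1, 146 in M3 and 739 in M4. The numbers were 136 higher in M3 against M2 and 544 lower in M4 against M3. M4 against M3 holds neither of these libraries, and its median stayed at -0.35. Its calls changed through the spread that is estimated from all libraries. At an unadjusted p under 0.05, 0 genes passed in M2, 3 in M3 and 1 in M4 against M1, 8 in M3 against M2 and 0 in M4 against M3, and the medians became -0.11, 0.75 and 0.46, and 0.86 for M3 against M2. The sign turned for M2 against M1 in 47 genes, with log2 values of -0.33 for MKI67, -0.28 for DEPDC1, -0.26 for CENPE and FOXM1, -0.25 for AURKA, -0.24 for CENPM and ASPM, -0.22 for INCENP, -0.21 for ANLN, -0.20 for TPX2, -0.19 for CENPF, -0.17 for NUF2, -0.16 for CENPN and AURKB, -0.15 for KIF11, KIF20A, ECT2 and MYBL2, -0.14 for SPC24, -0.13 for NDC80, BUB1B, BIRC5 and CDC20, -0.12 for CENPK, CENPL, TTK and NUSAP1, -0.11 for CENPI, KIF23 and KIF4A, -0.09 for BUB1, CDCA8, PLK1 and TOP2A, -0.08 for HMMR, -0.07 for CCNB2 and PRC1, -0.06 for CENPU, ZWINT and CCNA2, -0.04 for KIF2C, DEPDC1B and KNSTRN, -0.03 for TRIP13, UBE2C and PTTG1, -0.01 for CDK1. These 47 include FOXM1 and MYBL2, which are not among the 51 genes, and 6 of the 51 kept a positive value. For M4 against M1 the sign turned in 8 genes, with -0.44 for CENPH, -0.41 for PTTG1, -0.35 for TOP2A, -0.25 for CCNB2, -0.20 for CENPM, -0.15 for KIF20A, -0.14 for NUSAP1, -0.03 for MAD2L1. With both libraries left out, the medians were 1.32 in M2, 1.56 in M3 and 1.32 in M4 against M1, and 0.25 in M3 against M2. For M3 against M2 and M4 against M3 the counts were 0 and 0 with total counts, 0 and 0 with the 2-fold rule in both replicates, and 3 and 13 with no fold minimum. The ranges that follow cover, for each comparison, only the fits without a library of the lines compared. Those for the test of any line cover every library. Leaving out 1 library at a time gave 0 to 48 calls in M2, 47 to 51 in M3 and 38 to 46 in M4 against M1, 0 to 1 in M3 against M2, 0 to 4 in M4 against M3, and 49 to 51 in the test of any line. Apart from the M2 libraries, the calls against M1 lost in at least 1 of these fits were KIF11, UBE2C, CENPF, CENPM, SPC24, AURKB, KIF20A, ASPM and LIN9 in M2, CENPE, CENPK, CENPM, CENPN, KIF20A and MKI67 in M3, and CENPF, SPC24, MAD2L1, BIRC5, KIF11 and DEPDC1 in M4, none with a change of sign. The medians ran from 1.34 to 1.66, 1.54 to 1.88, 1.32 to 1.65, 0.12 to 0.41, and -0.48 to -0.10. Genes that did not pass the test in M3 against M2 (48) or M4 against M3 (38) were not listed by value; up to 12 and up to 9 of them changed sign under a setting. The cause was not tested. With 2 libraries a line, smaller differences could not be resolved.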
